A study of Mus musculus with 4 samples.

Results

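The regions described here are NANOG-bound active enhancers that have no OCT4 binding site nearby. They were chosen from the authors' table of NANOG peaks by 3 flags and 1 measured value. A peak had to carry the active enhancer flag, to carry neither the active promoter flag nor the flag for an OCT4 site within 1 kb, and to reach 0.9 RPKM in uninduced or in IAA-treated cells. RPKM divides the reads of a window by its length and by the sequenced total of its library. Of 631 windows with these flags, 585 reached the threshold and 46 did not. The 585 regions are 585 of the 16608 bound peaks of the series, which in turn are those of 21066 windows that reached the same threshold. Because the threshold was set on the NANOG values themselves, the regions were selected in part on the readout. In all, 560 reached it in both conditions, 19 only after IAA and 6 only in uninduced cells.

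Enhancers are stretches of DNA, often far from any promoter, where transcription factors gather and from which they raise transcription of a target gene. Active ones are marked by acetylation of histone H3 at lysine 27 (H3K27ac) and by the acetyltransferase P300, which deposits that mark. NANOG is a homeodomain transcription factor of the naive pluripotency network. In embryonic stem cells (ESCs) it often binds beside OCT4, a POU factor that reads the octamer motif, frequently in partnership with SOX2. The regions described here are the active enhancers at which NANOG was found without such an OCT4 site.

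The 4 NANOG ChIP-seq libraries came from mouse ZHBT-O4AID ESCs of strain 129SV, all of genotype Oct4-/- with a TetOFF Oct4 transgene, a CAG-driven Oct4AID transgene and a CAG-driven Tir1 transgene. All cells were grown in N2B27 with 1 μM PD03, 3 μM Chiron and mLIF, and doxycycline at 1 μg/ml kept wild-type OCT4 off, so the only OCT4 present was a degron fusion made from an integrated transgene under a constitutive promoter. Uninduced cells (2 replicates) were untreated, and IAA cells (2 replicates) received the auxin IAA (indole-3-acetic acid, 500 μM) for 1.5 h, which directs the fusion to the proteasome through TIR1. The comparison asks how NANOG occupancy changes soon after OCT4 is removed. The methods describe replicates as independent immunoprecipitations, and no source says whether they came from separate cultures, so the p-values measure the spread between these samples. The OCT4 sites and the enhancer marks come from published data on other ESCs, so absence of an OCT4 flag means that no peak was called in that experiment. The windows hold no expression values, and the cell type label was not checked against marker genes.

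The recovered library sizes were 8236968 and 11674801 reads in uninduced replicates 1 and 2, and 19634763 and 5406307 in IAA replicates 1 and 2. The 0.9 RPKM threshold is worth 2.60, 3.69, 6.20 and 1.71 reads in the same order. The median region of the set held 6, 12, 31 and 9 reads, so counting error is large for a single weak region. No value was 0, and a window with 1 read cannot be told from one with none.

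The sequences below are the central 201 bases of 6 regions, from the GRCm38 (mm10) reference, plus strand, 5′ to 3′. The reference strain is C57BL/6J, so a 129SV allele can differ. The first 3 are among the regions with the highest NANOG signal, the Mfsd12 region rose from very few reads, the Plpp3 region was the 1 called lower, and the Kat6b region had the smallest difference among the well covered ones. Capitals mark exact matches, on either strand, to the motifs ATGCAAAT (octamer), ACAAAG and ACAATGG (SOX), AAGGTCA (ESRRB and NR5A2), TTCCNGGAA (STAT), GGGNGTGG (KLF), TGANTCA (AP-1), GGAATG (TEAD) and TAATGG (homeodomain). Each region is named for its nearest protein-coding gene.
Abcc4, chr14:118691407-118691607: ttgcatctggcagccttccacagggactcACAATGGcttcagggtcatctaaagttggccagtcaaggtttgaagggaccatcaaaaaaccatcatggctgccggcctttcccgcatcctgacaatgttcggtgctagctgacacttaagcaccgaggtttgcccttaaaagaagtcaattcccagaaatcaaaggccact
Slc15a1, chr14:121506308-121506508: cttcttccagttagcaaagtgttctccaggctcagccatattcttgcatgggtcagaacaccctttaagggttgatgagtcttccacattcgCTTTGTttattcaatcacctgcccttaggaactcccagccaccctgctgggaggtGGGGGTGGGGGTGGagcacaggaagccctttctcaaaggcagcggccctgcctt
Zfp706, chr15:36991528-36991728: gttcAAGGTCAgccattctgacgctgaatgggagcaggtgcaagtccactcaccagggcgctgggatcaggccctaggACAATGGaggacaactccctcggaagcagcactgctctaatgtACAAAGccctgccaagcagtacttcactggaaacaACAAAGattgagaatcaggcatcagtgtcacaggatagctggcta
Mfsd12, chr10:81354585-81354785: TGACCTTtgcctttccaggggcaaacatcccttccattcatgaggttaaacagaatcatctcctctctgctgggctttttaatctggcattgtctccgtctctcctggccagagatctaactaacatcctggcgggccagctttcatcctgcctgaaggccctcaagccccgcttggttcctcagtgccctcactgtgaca
Plpp3, chr4:105225300-105225500: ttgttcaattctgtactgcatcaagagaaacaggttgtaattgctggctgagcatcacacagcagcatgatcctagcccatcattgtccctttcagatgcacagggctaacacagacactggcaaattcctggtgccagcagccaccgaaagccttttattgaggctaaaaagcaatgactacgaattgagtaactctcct
Kat6b, chr14:21484249-21484449: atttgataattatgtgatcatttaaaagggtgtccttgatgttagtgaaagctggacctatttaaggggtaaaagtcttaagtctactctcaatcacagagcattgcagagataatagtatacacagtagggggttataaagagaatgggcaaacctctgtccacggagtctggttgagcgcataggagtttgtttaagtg

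None of the 6 stretches held the octamer. The Zfp706 sequence held 4 matches, for the ESRRB and NR5A2 motif and for both SOX motifs, and the Slc15a1 sequence held a pair of overlapping KLF matches and a SOX match. The Mfsd12 sequence held 1 match for ESRRB and NR5A2. The Plpp3 and Kat6b sequences held no match in this stretch. A match is a description of the letters and not evidence of binding.

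Over the whole 351 bp windows, the octamer was found in 9 of the 585 regions (1.54%). It was found in 6.84% of 950 bound active enhancers that do have an OCT4 site, here called co-bound enhancers, in 1.30% of 11151 bound peaks with no flag of any kind, here called unflagged peaks, and in 3.71% of all 21066 windows. The absence of the OCT4 flag and the low share of octamers thus go the same way, although 1 of the 9 lies in an Esrrb intron 2896 bp from an OCT4-flagged peak. The KLF motif was held by 25.6% of the regions, 190 of 950 co-bound enhancers, 15.3% of unflagged peaks and 14.2% of all windows. The homeodomain motif TAATGG showed the opposite order, with 16.2%, 17.2% and 22.0% in the first 3 classes and 19.2% in all windows. The SOX motif ACAAAG, which is short and common, was in 48.4%, 51.5% and 48.8% of the 3 classes and in 43.9% of all windows. The longer SOX motif ACAATGG was in 12.0%, 13.5%, 16.4% and 16.3% in that order, and AAGGTCA in 21.2%, 23.7%, 19.0% and 16.3%. TTCCNGGAA was in 1.88%, 2.95%, 1.61% and 1.35%, TGANTCA in 14.9%, 12.0%, 10.8% and 9.22%, and GGAATG in 27.5%, 30.9%, 24.7% and 25.4%. These shares are descriptions and were not tested. Base composition differed too, with a median GC content of 49.6% in the regions, 46.7% in co-bound enhancers, 46.2% in unflagged peaks and 46.7% in all windows.

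In the GENCODE annotation (mouse release 21), 297 regions lay in introns, 247 between genes, 17 in exons of non-coding transcripts, 16 in untranslated exon sequence and 8 in coding exons. The median distance to a transcript start was 6401 bp, against 7971 bp for co-bound enhancers and 9724 bp for unflagged peaks. In all, 83 regions (14.2%) lay within 1 kb of a transcript start although none has the promoter flag, against 8.53% of co-bound enhancers and 8.30% of unflagged peaks. The nearest other bound NANOG peak was a median of 10466 bp away, much as for co-bound enhancers (10250 bp) and nearer than for unflagged peaks (25155 bp). The nearest bound peak with an OCT4 site was a median of 80946 bp away, with quartiles of 16713 and 292532 bp. The regions had 506 different nearest protein-coding genes, of which 437 had a single region and 9 had 3 or more.

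NANOG signal at these enhancers was higher in both IAA libraries than in both uninduced libraries. The median over the 585 regions was 2.08 and 2.93 RPKM in the uninduced libraries and 4.50 and 4.74 RPKM in the IAA libraries. On the log2(RPKM + 0.1) scale, which understates changes of low values, the uninduced libraries had medians of 1.12 and 1.60 and the IAA libraries of 2.20 and 2.28. The conditions thus did not overlap. The group values were 1.36 ± 0.34 (SD, n = 2) and 2.24 ± 0.053 (SD, n = 2), a difference of 0.88 that exceeds the pooled SD between replicates of 0.24. The two-sided exact permutation test of the 4 library labels gave p = 0.33, the smallest that 2 libraries against 2 allow. Leaving out each library in turn moved the difference to between 0.64 (without uninduced replicate 1) and 1.12 (without uninduced replicate 2), and quantile normalization, which gives every library the same distribution, moved it to 0.22. Regions are not replicates of the treatment, and no p was computed over them.

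**Figure D1:**
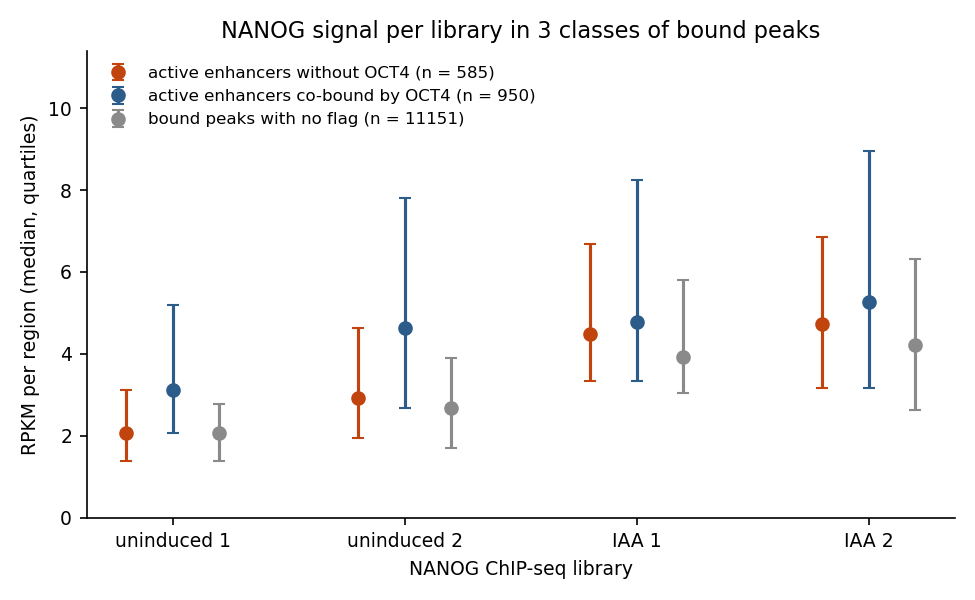
RPKM per region in each library, with points at the median and bars from the lower to the upper quartile over regions, for the 585 active enhancers without OCT4, the 950 co-bound enhancers and the 11151 unflagged peaks. The regions without OCT4 sit at 2.08 and 2.93 RPKM in uninduced cells and at 4.50 and 4.74 RPKM after IAA, while the co-bound enhancers go from 3.11 and 4.64 RPKM to 4.79 and 5.27 RPKM.

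RPKM is scaled to the reads of each library and no scaling to spiked-in chromatin is stated, so a rise over all peaks and a higher yield of the immunoprecipitation cannot be told apart from these values. Bound peaks as a whole took a share of the sequenced reads that moved with the treatment, from 1.60% and 2.28% to 3.05% and 3.24%. The 585 regions took 0.0570% and 0.0813% of all reads in uninduced cells and 0.123% and 0.129% after IAA. Taken as a share of the reads in bound peaks, which removes a shift common to all peaks, they took 3.55% and 3.56% in the uninduced libraries and 4.05% and 3.98% in the IAA libraries. Both IAA shares were above both uninduced shares. The group means of 3.56% ± 0.010 (SD, n = 2) and 4.01% ± 0.046 (SD, n = 2) differed by a ratio of 1.13 (two-sided exact permutation p = 0.33, the smallest possible). The share of unflagged peaks rose too, from 58.5% and 57.3% to 64.6% and 63.8%, so a gain in share was not particular to these regions. The co-bound enhancers went the other way, from 9.06% and 9.40% to 7.63% and 8.03%.

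The pairs of libraries give the size of the rise against the spread between replicates. The median difference per region was 1.12 and 1.14 (log2) for the IAA libraries against uninduced replicate 1, and 0.63 and 0.64 against uninduced replicate 2. Between replicates the median difference was 0.47 in uninduced cells and 0.02 in IAA cells. Every difference between conditions was therefore larger than either difference between replicates, although its size depends much on which uninduced library is used. Across the 585 regions, which share each library's depth and are not independent, the log2 signal of replicates had a Pearson's r of 0.71 in uninduced cells and 0.81 after IAA.

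Single regions were tested with limma on all 16608 bound peaks, and a region was called at a Benjamini-Hochberg adjusted p under 0.05. limma called 122 of the 585 regions higher after IAA (20.9%) and 1 lower (0.171%), where 15.0% of all bound peaks were called higher and 0.337% lower. At an unadjusted p under 0.05 the counts were 254 and 4, against 4342 and 29 of the 11151 unflagged peaks and 215 and 19 of the 950 co-bound enhancers. Both IAA values were above both uninduced values in 417 regions (71.3%), against 60.5% of all bound peaks, and below both in 14 (2.39%), against 4.23%. The median fitted log2 difference over the regions was 0.88, with quartiles of 0.51 and 1.27, and 0.76 over all bound peaks. It was positive in 540 regions (92.3%), against 91.0% of unflagged peaks and 78.3% of co-bound enhancers. Of the 560 regions that reached the threshold in both conditions, 110 were called higher and the median was 0.87. Of the 19 that reached it only after IAA, 12 were called, which the way they were selected favours.

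The number of calls depended on single libraries. It was 310 without uninduced replicate 2, and 0 without IAA replicate 1 or without IAA replicate 2, where limma left 110 and 68 regions higher at an unadjusted p under 0.05. It was also 0 after quantile normalization (65 at an unadjusted p under 0.05), where 0 of all 16608 bound peaks were called higher. With eBayes run without a variance trend it was 13, against 157 of all bound peaks (0.945%). The calls over all bound peaks moved the same way in each of these settings, so the swings were not particular to these regions. The count is a weak guide to how many regions rose.

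**Figure D2:**
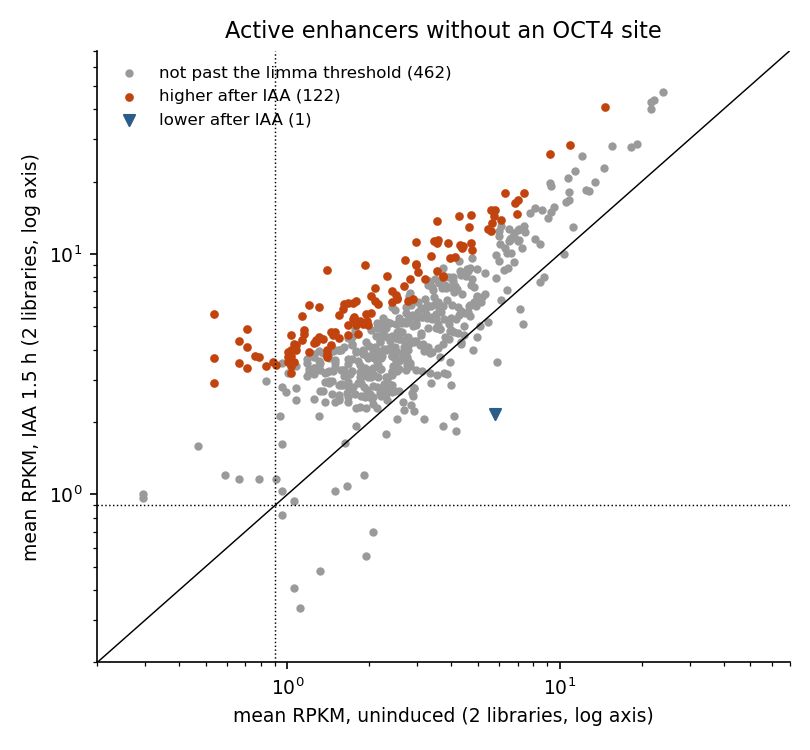
Mean RPKM over 2 libraries in uninduced cells (x, log axis) against IAA (y, log axis) for the 585 active enhancers without OCT4, with the line of equality and, dotted, the 0.9 RPKM threshold on each axis. The 122 regions called higher by limma lie above the line, the 1 called lower lies below it, and 462 were not called.

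The difference between conditions was larger at enhancers without an OCT4 site than at enhancers with one. In uninduced cells the median log2 signal of the regions without OCT4 was below that of co-bound enhancers by 0.56 in replicate 1 and by 0.65 in replicate 2. After IAA it was below by only 0.09 and 0.15. The gap between the classes thus narrowed in both IAA libraries, with no overlap between conditions. The change in this gap was 0.49, against a pooled SD between replicates of 0.051 (two-sided exact permutation p = 0.33, the smallest that 2 against 2 allow). Because the gap is taken within each library, library-wide scaling does not enter it, and under quantile normalization it was 0.45. Leaving out each library in turn gave 0.44 to 0.53.

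The same held in each of the 4 pairs of libraries from different conditions. The median difference per region was larger without OCT4 than at co-bound enhancers by 0.42, 0.36, 0.43 and 0.41 (log2). In the pair of uninduced replicates and the pair of IAA replicates this contrast was −0.09 and −0.07. limma called 8.63% of co-bound enhancers higher and 1.26% lower, and their median fitted difference was 0.48.

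**Figure D3:**
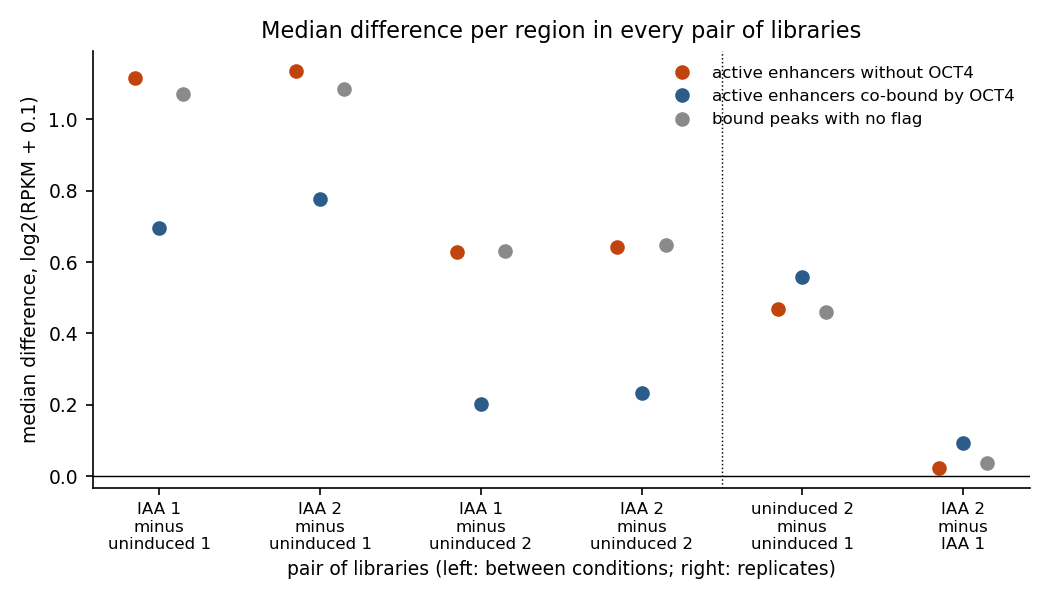
Median difference per region in log2(RPKM + 0.1) for every pair of libraries, with the 4 pairs between conditions on the left of the dotted line and the 2 pairs of replicates on the right. Active enhancers without OCT4 lie at 0.63 to 1.14 between conditions, co-bound enhancers at 0.20 to 0.78, and unflagged peaks close to the enhancers without OCT4.

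The classes differ in signal level, so the difference was also read at matched mean RPKM over the 4 libraries. At 2 to 4 RPKM the median log2 difference was 0.91 in 318 regions without OCT4 and 0.48 in 365 co-bound enhancers. At 4 to 8 RPKM it was 0.87 in 163 regions and 0.36 in 326, and at 8 RPKM or more it was 0.93 in 72 and 0.62 in 212. Under 2 RPKM, where counting error is largest, it was 0.64 in 32 regions and 0.40 in 47. The regions without OCT4 thus had a higher median than co-bound enhancers in each of the 4 ranges. Unflagged peaks had medians of 0.67, 0.83, 0.92 and 1.01 from the lowest range to the highest. The medians of the regions were below these except at 2 to 4 RPKM. Within the regions themselves the difference did not follow the level, with a Spearman's rho of 0.03 over the 585 regions, given as a description.

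**Figure D4:**
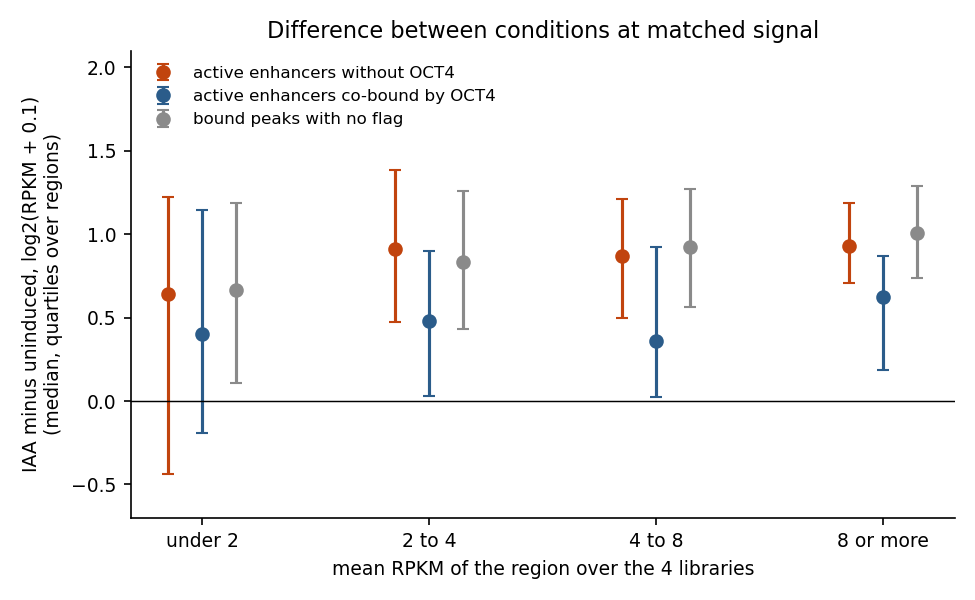
Fitted log2 difference (IAA minus uninduced) in 4 ranges of mean RPKM, with points at the median and bars from the lower to the upper quartile over regions. Active enhancers without OCT4 have medians of 0.64 to 0.93 and co-bound enhancers of 0.36 to 0.62, and the quartile ranges of these classes overlap in each range. Unflagged peaks have medians of 0.67 to 1.01.

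Active enhancers without OCT4 were much closer to unflagged peaks, which carry neither the enhancer flag nor the OCT4 flag. The enhancer flag needs both P300 and H3K27ac, so an unflagged peak can still carry either mark alone. Within each library the regions exceeded the unflagged peaks by 0.00 and 0.12 (log2) in uninduced cells and by 0.19 and 0.17 after IAA. The change of 0.12 compares with a pooled SD of 0.062 (two-sided exact permutation p = 0.33, the smallest possible). It turned to −0.037 with no filter on low values, to −0.012 at a threshold of 2 RPKM and to −0.046 with at least 2 reads in every library. Per region, the median difference exceeded that of unflagged peaks by 0.05 and 0.05 against uninduced replicate 1 and by −0.00054 and −0.0055 against uninduced replicate 2. limma called 18.2% of unflagged peaks higher, with a median of 0.87, so a larger rise than at unflagged peaks was not shown. The 477 bound active promoters had 10.9% called higher and a median of 0.73.

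A comparison at close range gave the same direction as that of the classes. For 105 regions the nearest bound peak with an OCT4 site lay within 10 kb, and these had 95 distinct neighbours, of which 61 carry the enhancer flag. The median of the regions minus the median of their neighbours was −0.63 and −0.57 (log2) in the uninduced libraries and −0.31 and −0.41 after IAA. This gap was not taken pair by pair. The gap was smaller in both IAA libraries than in either uninduced one. It changed by 0.24, with a pooled SD of 0.058 (two-sided exact permutation p = 0.33, the smallest possible). The median fitted difference was 0.89 at the regions and 0.57 at their neighbours, and the region had the larger one in 69 pairs (65.7%).

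Distance to an OCT4-flagged peak gave no order within the regions. The median log2 difference was 0.92 in 36 regions under 3 kb from such a peak, 0.85 in 69 at 3 to 10 kb, 0.91 in 149 at 10 to 50 kb, 0.91 in 145 at 50 to 200 kb and 0.85 in 186 farther away. Distance to a transcript start gave medians of 0.87 under 1 kb, 0.90 at 1 to 5 kb, 0.89 at 5 to 20 kb, 0.97 at 20 to 50 kb and 0.74 in the 31 regions beyond 50 kb. The 297 intronic regions had a median of 0.93 with 65 called higher, and the 247 intergenic ones 0.87 with 52 called. The 300 regions at or above the median GC content had 0.95 with 71 called higher (23.7%). The other 285 had 0.84 with 51 called (17.9%), where 15.0% of all bound peaks were called higher. The 9 regions with an octamer had a median of 0.91 with 3 called higher, and the 576 without one 0.88.

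The 3 strongest regions lay in or near Fasn, Abcc4 and Slc15a1. The highest mean signal was in untranslated exon sequence of Fasn, the fatty acid synthase gene (chr11:120805717-120806067), at 19.7 and 28.1 RPKM in uninduced cells and 41.5 and 52.7 after IAA. Both IAA values were above both uninduced values, and the fitted log2 difference was 0.99 ± 0.50 (SE), with a limma adjusted p of 0.14. In an intron of Abcc4, an ABC transporter that exports cyclic nucleotides, the region whose sequence is given above read 15.2 and 29.0 RPKM, then 38.2 and 49.5. Near Slc15a1, a proton-coupled peptide transporter, it read 19.0 and 24.4 RPKM, then 38.0 and 48.0. Neither passed the limma threshold (adjusted p of 0.11 and 0.14), although neither showed overlap between conditions.

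Near Zfp706, a small zinc finger gene, the region was among the strongest and also had the largest rise of the 29 regions with at least 20 reads in every library. Its values were 9.34 and 20.01 RPKM before IAA and 32.5 and 49.0 after it. The fitted difference was 1.54 ± 0.46 (SE, log2), with a limma adjusted p of 0.016. The Zscan2 region, 16827 bp from the start of a SCAN-domain zinc finger gene, read 16.6 and 26.8 RPKM, then 34.8 and 45.3 (adjusted p = 0.16 with limma). An intronic region of Ankrd17, an ankyrin repeat gene, read 14.5 and 23.9 RPKM, then 24.4 and 32.7, so that its lower IAA value barely cleared its higher uninduced value (adjusted p = 0.35 with limma).

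Another well covered region with a large rise lay in an intron of Tanc1, a scaffold protein gene. The signal was 10.4 and 11.5 RPKM in uninduced cells, then 26.0 and 30.6 after IAA, a difference of 1.36 ± 0.44 (SE, log2) with a limma adjusted p of 0.025. Each IAA library was above each uninduced library by a wide margin.

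At the other end, the signal in an intron of Kat6b, which encodes a histone acetyltransferase, was 7.26 and 13.4 RPKM in uninduced cells and 9.43 and 10.5 after IAA. Both IAA values fell between the uninduced ones, and the fitted difference was 0.01 ± 0.42 (SE, log2). Near Spsb2, a SOCS box adaptor gene, the values were 7.96 and 14.4 RPKM, then 14.2 and 11.6, with overlapping conditions and a difference of 0.26 ± 0.43 (SE). In an intron of Macf1, which links microtubules to actin, they were 7.96 and 9.03 RPKM, then 11.0 and 11.1, a difference of 0.38 ± 0.42 (SE). None passed the limma threshold (adjusted p of 0.98, 0.67 and 0.52), and their differences carry SEs of 0.42 to 0.43.

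**Figure D5:**
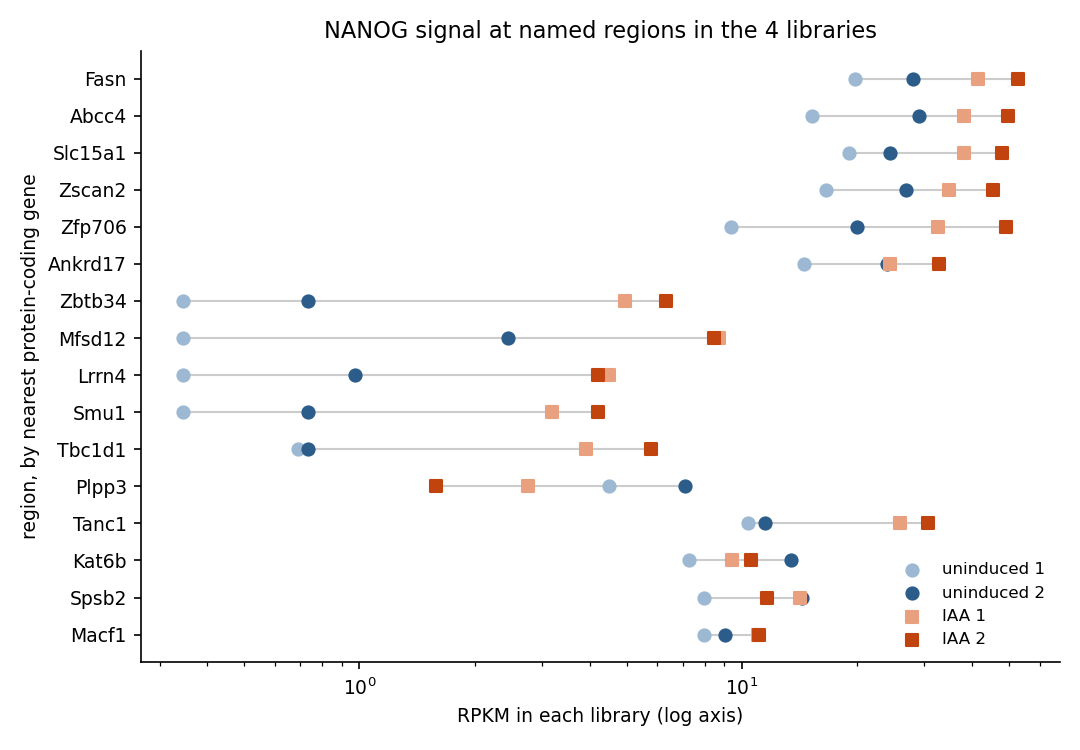
RPKM in each of the 4 libraries (log axis) for 16 regions named by their nearest protein-coding gene, with circles for uninduced and squares for IAA and a grey line over the range. The IAA squares lie to the right of the circles at every region except Plpp3, where they lie to the left, and Kat6b and Spsb2, where they overlap.

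The 5 largest rises among the regions called by limma started from very few reads. The Zbtb34 region, near a BTB zinc finger gene, held 1 and 3 reads in uninduced cells (0.346 and 0.732 RPKM) and 34 and 12 after IAA (4.93 and 6.32 RPKM). The Mfsd12 region, near a transporter gene of lysosomes and melanosomes, held 1 and 10 reads, then 60 and 16, or 0.346 and 2.44 RPKM, then 8.71 and 8.43. The fitted log2 differences were 3.22 ± 0.64 and 3.03 ± 0.52 (SE), with limma adjusted p of 0.00030 and 2.2e-05. The regions assigned to Lrrn4, Smu1, a splicing factor gene, and Tbc1d1, a Rab GTPase activator gene, had 1 to 4 reads in each uninduced library and 8 to 31 after IAA, and fitted differences of 2.69, 2.63 and 2.58. The last of them lay 201662 bp from the Tbc1d1 start. With 1 read as the smallest recorded value, the size of these rises is poorly fixed.

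The 1 region called lower lay in an intron of Plpp3, which encodes a lipid phosphate phosphatase (chr4:105225225-105225575). It read 4.50 and 7.08 RPKM in uninduced cells and 2.76 and 1.58 after IAA, or 13 and 29 reads, then 19 and 3. Both IAA values lay below both uninduced values. The fitted difference was −1.39 ± 0.50 (SE, log2), with a limma adjusted p of 0.040. The region was not called after quantile normalization, with no variance trend or with limma voom on the recovered reads. Leaving out each library gave differences of −1.77 to −1.01. IAA replicate 2 contributed only 3 reads.

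Genes of the pluripotency network and of the signalling pathways that act on it were read from lists of 152 genes, by nearest protein-coding start. Of these genes 16 had at least 1 region, with 24 regions in all. limma called 9 of the 24 higher, against 20.9% of the 585 regions and 15.0% of all bound peaks. It called 0 lower (0 also at an unadjusted p under 0.05), against 0.337% of all bound peaks. Both IAA values were above both uninduced values in 21 of the 24, against 71.3% of the 585 regions and 60.5% of all bound peaks. The median log2 difference of the 24 was 0.85, against 0.88 over the 585 regions. Nearest genes are assigned by position alone, and a region can act on another gene. The lists of LIF and STAT3 genes (10 genes) and of formative and lineage regulators (19 genes) had no region.

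Naive and core pluripotency factors held 12 regions near 5 of 32 genes, with 4 called higher, 0 called lower and a median of 0.75. The median was 0.88 over the 585 regions and 0.76 over all bound peaks. For this list and each list below, the share called higher compares with 20.9% of the 585 regions and 15.0% of all bound peaks. In an intron of Esrrb, a nuclear receptor of the naive network, the signal was 4.15 and 7.32 RPKM in uninduced cells and 11.3 and 17.4 after IAA, without overlap. The difference was 1.33 ± 0.42 (SE, log2), with a limma adjusted p of 0.022. Ncoa3, a nuclear receptor coactivator that works with ESRRB, had 3 regions, of which the strongest, intronic, read 8.30 and 9.76 RPKM, then 13.3 and 14.8, a difference of 0.64 ± 0.42 (SE) that did not pass (limma adjusted p = 0.27).

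Zfp281, a zinc finger gene of the same network, was the nearest coding gene of 4 regions, the most of any gene, all at least 45869 bp from its start. The strongest read 6.92 and 8.05 RPKM, then 10.01 and 14.8, and did not pass (limma adjusted p = 0.22). Another, inside a non-coding gene, read 1.73 and 5.37 RPKM, then 10.01 and 12.1, with a limma adjusted p of 0.0035. In all 4 both IAA values were above both uninduced values. Regions near Pou5f1, which encodes OCT4, and Mycn, a MYC family gene, were picked out after their values were seen. The Pou5f1 region 15447 bp from its start read 3.11 and 2.93 RPKM, then 7.40 and 9.49 (limma adjusted p = 0.019), and an intronic Mycn region read 4.15 and 7.08 RPKM, then 12.2 and 12.6 (limma adjusted p = 0.041). Each of these genes had a second region that was not called. That of Pou5f1, in a coding exon, read 0.692 and 1.22 RPKM, then 2.18 and 1.05, with overlapping conditions (limma adjusted p = 0.53), and that of Mycn read 3.11 and 3.66 RPKM, then 5.66 and 5.27 (limma adjusted p = 0.28).

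Among Nodal, TGF-beta and BMP genes 3 regions lay near 3 of 22 genes, and 1 was called higher. Near the receptor gene Acvr1b, which carries activin and Nodal signals, the values were 0.692 and 1.46 RPKM, then 3.63 and 4.74, with a limma adjusted p of 0.020. Near the ligand gene Bmp4 they were 3.11 and 3.66 RPKM, then 5.95 and 4.74. The region assigned to Smad7, an inhibitor of the pathway, lay in an intron of Ctif, 90194 bp from the Smad7 start. It read 10.4 and 12.4 RPKM, then 24.8 and 19.5. Neither the Bmp4 nor the Smad7 region passed (adjusted p of 0.32 and 0.11 with limma), although neither had overlapping conditions.

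Among FGF and ERK genes 4 regions lay near 4 of 19 genes, and 2 were called higher. An intronic region of Grb2, the adaptor that couples receptors to RAS, read 3.11 and 5.12 RPKM, then 9.87 and 9.49 (limma adjusted p = 0.034). The region assigned to Spry2, a feedback inhibitor of the pathway, lay 45129 bp from its start. The values there were 1.38 and 3.66 RPKM, then 5.22 and 7.90 (limma adjusted p = 0.026). The region near Spry4, another such inhibitor, read 1.73 and 2.68 RPKM, then 4.21 and 3.16, and did not pass (limma adjusted p = 0.32). The remaining region, in an intron of the kinase gene Map2k1, read 1.38 and 3.17 RPKM, then 4.06 and 1.58, with overlapping conditions and the smallest difference of the 4, 0.26 ± 0.58 (SE, log2; limma adjusted p = 0.75).

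In the remaining lists, Tcf7l1, a repressor of WNT target genes, had 1 region of the 18 WNT genes, at 3.11 and 4.39 RPKM, then 8.85 and 7.38, which did not pass (limma adjusted p = 0.065). Tead4, a factor of the trophectoderm, had 1 region, intronic, at 0.692 and 2.93 RPKM, then 5.08 and 4.22 (limma adjusted p = 0.032). Chromatin regulators had 3 regions near 2 of 20 genes, with 1 called higher. The stronger region assigned to Jarid2, a partner of Polycomb complex PRC2, lay 49876 bp from its start and read 4.50 and 4.64 RPKM, then 6.82 and 10.5 (limma adjusted p = 0.13). The other, which was called, read 2.42 and 4.64 RPKM, then 11.2 and 5.80 (limma adjusted p = 0.041). An intronic region of Kdm4c, an H3K9 demethylase gene, read 1.73 and 1.95 RPKM, then 4.06 and 2.11 (limma adjusted p = 0.41).

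Some of the regions stood close together. In 51 runs of neighbours, with gaps between centres of at most 11855 bp, 106 of the 585 were grouped, and the longest run held 4 regions over 15398 bp between Lrrc74a and Irf2bpl (chr12:86802348-86817745). Its regions lay 61516 to 68560 bp from the nearest protein-coding start. They read 2.77, 2.08, 1.38 and 0.346 RPKM in uninduced replicate 1 and 4.39, 1.71, 0.976 and 2.44 in replicate 2, in order along the chromosome. After IAA they read 3.92, 4.79, 3.34 and 3.77 RPKM in replicate 1 and 6.32, 3.16, 3.69 and 3.69 in replicate 2. The last 3 showed no overlap between conditions and the first did, and only the last was called higher by limma (adjusted p = 0.030).

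At the threshold itself, the regions just inside were assigned to Stt3b, Manba and Ufl1, with means of 0.956, 0.295 and 0.295 RPKM in uninduced cells, then 0.817, 0.962 and 1.01 in IAA cells. The windows just outside were assigned to Dop1b, Ank1 and Marcks, with 0.417, 0.295 and 0.641 RPKM and then 0.890, 0.890 and 0.863. The Ufl1 region lay 190491 bp and the Marcks window 681577 bp from the start of that gene. All 6 rest on 1 to 6 reads in each library.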

How the data were processed

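NANOG ChIP-seq was analysed in 4 libraries, grouped by the labels. Per the study's methods and the submitters' processing notes, the authors aligned reads to mm10 with Bowtie2 2.3.4.3, removed duplicates, and called peaks (MACS2) from the pooled reads of both conditions. The deposited values are RPKM computed by the authors with DiffBind over 351 bp windows at peak summits, and no scaling to spiked-in chromatin is stated. The authors' table gives RPKM per condition, which equalled the mean of the 2 libraries to within 5.0e-06, and flags for OCT4 sites and chromatin classes. In it, active enhancers lie within 1 kb of P300 and overlap H3K27ac.

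Starts were read as 0-based and are printed 1-based. Within a library every value was a whole multiple of the lowest one (tolerance 0.001 reads), which was taken as 1 read. Values were tested as log2(RPKM + 0.1) with limma 3.58.1 (R 4.3.3, moderated with a mean-variance trend, two-sided, no block), with p-values adjusted over the 16608 bound peaks by Benjamini-Hochberg, and library values with a two-sided exact permutation test. The limma script was tested on simulated data. The members, gene lists and rules were chosen with earlier results of these data known. Regions named were the 6 strongest, the 5 largest called rises and falls, up to 3 per gene list (1 per gene), the 3 largest and 3 smallest differences among regions with at least 20 reads in every library, those nearest the threshold, and the longest run. 1 region that this rule names is not reported here. Motifs, GC and positions came from GRCm38 and GENCODE. Alternatives were pseudocounts of 0.01 and 0.5, other filters, quantile normalization, a replicate block, no trend, an adjusted p of 0.01, limma voom on recovered reads, and leaving out each library. Software was Python 3.11.15, numpy 2.4.6, pandas 2.3.3, scipy 1.17.1 and matplotlib 3.10.9.

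Same-numbered libraries did not deviate together (correlation of deviations 0.0055 over bound peaks), so the numbers were not taken to pair samples.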

Additional observations from a re-analysis of the deposited data

How the results depend on the processing

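The direction of the difference at the regions, and of its contrast with co-bound enhancers, was the same under every alternative run (0.22 to 1.12 and 0.38 to 0.53, log2). The numbers of calls were not stable. Against 122 higher and 1 lower, quantile normalization gave 0 and 0 (65 and 21 at an unadjusted p under 0.05), no variance trend 13 and 0, and an adjusted p of 0.01 gave 28 and 0. Of all bound peaks, 0%, 0.945% and 3.22% were called higher in the same order, against 15.0% in the main setting. Leaving out each library gave 0 to 310 higher and 0 to 1 lower. limma voom, chosen after seeing the data, gave 130 and 0, where 15.0% of all bound peaks were called higher. The planned count models on recovered reads were not run, because the deposited unit is RPKM, and voom took their place. Where 1 library was left, it was assumed to vary like the other condition. The cause of these shifts was not tested. The contrast with unflagged peaks, 0.12, turned to −0.037 with no filter on low values, −0.012 at 2 RPKM and −0.046 with at least 2 reads in every library, and was 0.059 to 0.18 when each library was left out.

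With the replicate block, 133 regions were called higher and 1 lower, where 16.0% of all bound peaks were called higher. The contrast with co-bound enhancers stayed at 0.49 (exact p = 0.50, the smallest that 2 pairs allow). The numbers are shared labels only. Of 48 regions named in the text, 5 gained a call with the block and none lost one.

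Among these 48, 19 passed the threshold, and 19 lost their call under quantile normalization and without either IAA library, and 14 with no variance trend. Direction turned under quantile normalization at Ankrd17 (−0.10), Bmp4 (−0.0081), Kat6b (−0.70), the first Lrrc74a region (−0.17), Macf1 (−0.33), Map2k1 (−0.40), the exonic Pou5f1 region (−0.36), the strongest Ncoa3 region (−0.069), Spsb2 (−0.45) and the strongest Zfp281 region (−0.017), and with voom at Kat6b (−0.0085). Leaving out each library gave −0.43 to 0.45 at Kat6b, −0.16 to 0.68 at Spsb2, −0.39 to 0.92 at Map2k1 and −0.59 to 0.17 at Stt3b.

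Depth limits single regions most, since a median of 6 to 31 reads lay behind a value. With 1 read as the smallest recorded value, falls at weak regions are hidden most in IAA replicate 2, the shallowest library, where 1 read is worth 0.527 RPKM. All RPKM values are relative to the library total, so an equal change at all peaks and a difference in enrichment between libraries cannot be told apart. Contrasts between classes within a library are free of scaling to that total. Whether a difference in enrichment acts unequally on classes of different signal level was not tested.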

Other observations

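The 14 regions that also carry the repressed chromatin flag (H3K9me3 or H3K27me3) had a median log2 difference of 0.51, against 0.89 in the other 571, and limma called 1 of them higher. That region, near the co-chaperone gene Dnaja2, rose from 0.346 and 1.71 RPKM to 3.34 and 4.22. The 56 regions with at least 50% of their bases masked as repeats had a median of 0.71 with 6 called higher, and the other 529 had 0.90 with 116 called. These groups were not tested against each other.

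All 4 regions on chromosome Y carry the repressed flag and had a negative fitted difference, and 3 of them form a run of 1362 bp (chrY:90811793-90813154). The region that starts the run read 7.61 and 4.15 RPKM, then 4.50 and 2.63 in the IAA libraries, with overlapping conditions. The other two of the run read 8.30 and 6.34 RPKM, then 5.51 and 4.74, and 3.80 and 3.90 RPKM, then 3.19 and 3.16. The fourth read 2.42 and 1.46 RPKM, then 0.580 and 0.527. Windows of the run were masked as repeats over 79.8% to 100% of their bases, so reads may be shared with copies elsewhere. None of the 4 passed the limma threshold. These regions were singled out after their values were seen.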
